A study of Mus musculus with 47 samples.

Results

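Of 850 genes that rose with neural differentiation of untagged mouse embryonic stem cells, 82 kept a mean level between 80% and 150% of the untreated level when the Polycomb protein SUZ12 was degraded through the differentiation. A gene counted as induced when its mean was at least 10 TPM (a transcript level scaled for length and library size so that a library sums to 1000000) in untreated differentiated cultures of the untagged line, and when that mean plus 0.5 was at least 8 times the mean plus 0.5 in untreated stem cells. Symbols beginning with Hox, Mir, Snor or LOC were left out. The 82 retained genes made up 9.65% of the induced genes. Another 737 lay below 80% and 31 above 150%. The members were thus chosen by their measured levels in the untagged and SUZ12-AID lines. Reads were found for 27296 of the 35856 symbols in the table.

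The study profiled polyadenylated RNA in C57BL/6 mouse embryonic stem cells and in cultures differentiated from them for 5 days, labelled NPCs, with 47 libraries in 16 groups. Every line carried Tir1, the plant F-box protein that lets auxin trigger degradation of a protein fused to an auxin-inducible degron (AID), and the 4 genotypes were untagged, SUZ12-AID, MTF2-AID and AID-JARID2. Each line was sampled untreated and with 50 µM of the auxin indole-3-acetic acid, for 12 h in stem cells and for 5 days in differentiated cultures. Each group had 3 libraries, except the auxin-treated SUZ12-AID differentiated cultures with 2. Stem cells were kept in LIF with the inhibitors CHIR99021 and PD0325901. Differentiated cultures had bFGF at 10 ng/mL for 72 h and then the Hedgehog agonist SAG at 500 nM for 48 h. The labels name no clone, so each genotype is described here as 1 line. The titles of the MTF2-AID and AID-JARID2 differentiated samples say day 0 while their source and treatment fields give NPCs and 5 days; these fields were used. The series text calls the libraries of a group biological replicates.

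SUZ12 is a core subunit of Polycomb repressive complex 2 (PRC2), the enzyme complex that methylates lysine 27 of histone H3 at CpG-rich promoters of silent developmental genes. MTF2 belongs to the PRC2.1 form of the complex, which binds CpG-rich DNA, and JARID2 to the PRC2.2 form. In stem cells PRC2 holds many lineage genes silent, and during differentiation some of these lose the mark and are switched on while genes of other lineages stay marked.

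Facts of the whole series can be given briefly. Whole reads could be recovered from the deposited TPM steps for all 27296 genes, and library depth was 3237115 to 8707922 reads. Replicates of a group correlated at 0.975 to 0.989 across genes on the log2 scale, and no pair of libraries was identical. Degradation acts on protein, so transcript levels do not test it. Suz12 mRNA averaged 285 TPM in untreated SUZ12-AID stem cells against 145 TPM in untagged ones, and in SUZ12-AID differentiated cultures it averaged 77.8 TPM untreated and 163 TPM with auxin. Untreated differentiated cultures of the untagged line carried the neural progenitor transcripts Sox1 at 84.9 TPM and Nes at 351 TPM, and the neuronal tubulin Tubb3 at 2170 TPM.

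The retained genes held few genes of neural identity, so their working name of neural genes describes the cultures and not the genes themselves. Among 18 lists of marker and pathway genes, the neural progenitor list had 30 induced genes, of which 1 was retained (Hmga2, a chromatin architectural protein) and 28 lay below 80%. None of 20 induced neuron identity factors, 34 neuronal cytoskeleton genes, 25 synapse genes or 31 Notch and proneural genes was retained. Of 43 induced axon guidance and adhesion genes, 3 were (Efnb1, Sema3f and Cdh11). The Hedgehog list gave 1 of 5 (Boc, a Hedgehog co-receptor). Larger shares came from extracellular matrix and secreted proteins, with 6 of 27 (Col4a1, Col4a2, Fbn1, Timp2, Adamts1 and Thbs1), from Wnt, BMP, FGF and retinoic acid signalling, with 4 of 15 (Sfrp2, Fzd1, Fzd2 and Nkd1), and from imprinted genes, with 4 of 14 (Ndn, Magel2, Cdkn1c and Grb10). In the matrix list 5 further genes and in the imprinted list 5 further genes lay above 150%, among them Igf2, which is on both lists. These shares follow from the values that chose the genes and carry no test.

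**Figure D1:**
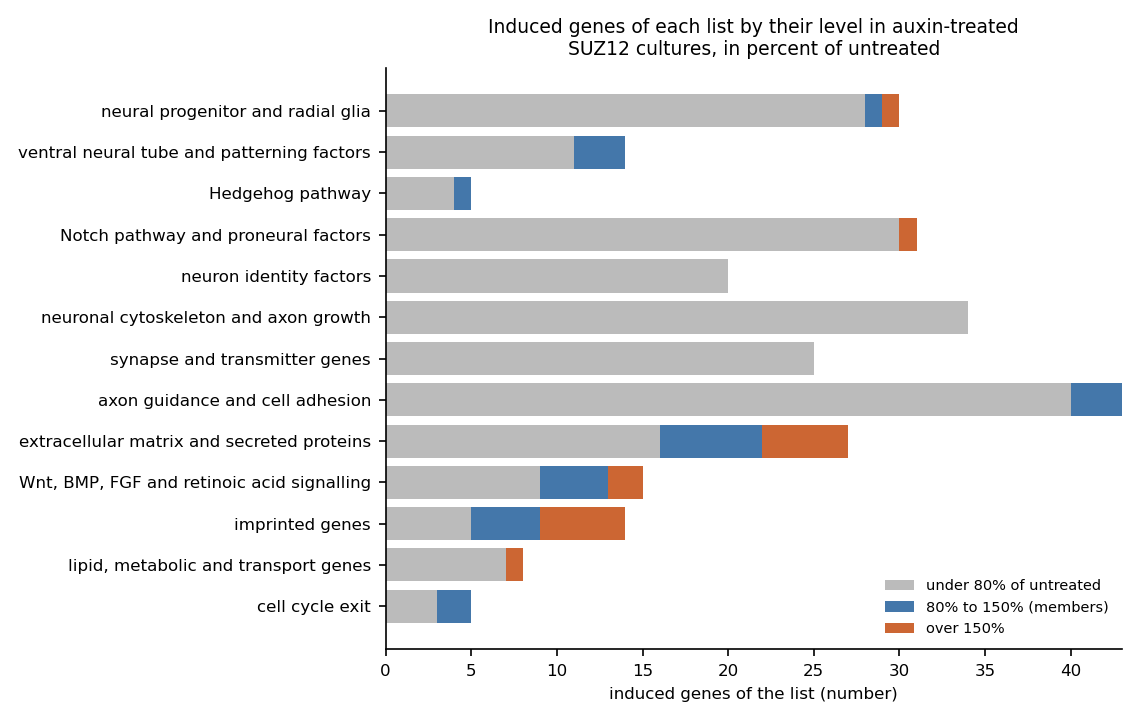
Number of induced genes (horizontal axis) in each marker or pathway list with at least 5 of them (vertical axis), split by the level in auxin-treated SUZ12-AID differentiated cultures in percent of untreated. The neuron, synapse and Notch lists have no gene in the 80% to 150% class, while the matrix list has 6, the imprinted list 4 and the Wnt, BMP, FGF and retinoic acid list 4.

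By function, the 82 genes were sorted into 6 groups after their membership was known. There were 17 matrix and secreted proteins, 13 signalling and guidance genes, 11 transcription and nuclear factors, 5 imprinted or cell cycle genes, 15 cytoskeletal, adhesion and polarity genes, and 21 transport, membrane and other genes. In the GENCODE M21 annotation (mm10) 81 of the 82 symbols were found, all as protein-coding genes, on 19 chromosomes. A few were neighbours. Col4a1 (chr8:11198423-11312826, minus strand) and Col4a2 (chr8:11312805-11449287, plus strand), which encode the chains of the basement membrane collagen IV, start head to head with 22 bases in common. Ndn (chr7:62346569-62350262) and Magel2 (chr7:62377010-62381640), both on the plus strand, are members of the MAGE family from the imprinted Prader-Willi region and lie 26747 bases apart. Cdkn1c (chr7:143458339-143461050), an inhibitor of cyclin-dependent kinases, and Osbpl5 (chr7:143688762-143756985), an oxysterol-binding protein, are both on the minus strand and 227711 bases apart.

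The levels that chose the genes are given here as a description. The retained genes had a median of 1.16 TPM in untreated untagged stem cells and of 31.7 TPM in the untreated differentiated cultures. The highest were Cdkn1c (386, 418 and 384 TPM in the untagged untreated differentiated libraries), the growth factor receptor adaptor Grb10 (391, 396 and 395 TPM), Ndn (303, 309 and 300 TPM), the D-type cyclin Ccnd2 (277, 274 and 256 TPM) and the Wnt receptor Fzd2 (227, 219 and 201 TPM). Hmga2, Sfrp2 (a secreted Wnt antagonist), Nenf, Limd2 and Bin1 completed the 10 highest, and their means lay between 121 and 153 TPM. Fold over stem cells was largest for Ccnd2 (120-fold), Pkdcc, a secreted tyrosine kinase (118-fold), Lbh, a transcriptional cofactor (90.4-fold), Plat, the tissue plasminogen activator (87.6-fold), and Loxl2, a collagen cross-linking oxidase (73.5-fold), on the TPM + 0.5 scale. Cib2 and Tgfb1i1 were listed at 0 in all untreated untagged stem cell libraries.

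With SUZ12 degraded, the retained genes ranged from 80.5% to 147% of untreated, with a median of 99.7%, where all 850 induced genes had a median of 37.0%. The libraries of both conditions overlapped for 27 genes, both auxin libraries were above all 3 untreated ones for 28, and below for 27. These libraries helped choose the genes, and separation of 2 from 3 libraries easily arises. The share over all genes was not computed, so the counts carry no test. Cdkn1c had 441, 467 and 437 TPM untreated and 513 and 502 TPM with auxin. Ccnd2 had 288, 313 and 292 TPM untreated and 290 and 293 TPM with auxin, and Grb10 409, 406 and 405 TPM against 408 and 404 TPM. Cdkn1c was thus higher in both auxin libraries, while the ranges of Ccnd2 and Grb10 overlapped.

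Levels varied within the allowed band, and 19 genes lay at 120% or more, which is given as a description. Podxl, a sialomucin of the cell surface, had 81.7, 80.2 and 79.3 TPM untreated and 126 and 110 TPM with auxin. Hmga2 had 152, 158 and 147 TPM against 209 and 205 TPM. Amot, an angiomotin that binds YAP, had 24.2, 23.8 and 22.1 TPM against 35.0 and 32.6 TPM. All 3 genes were higher in both auxin libraries than in any untreated one. At the lower edge, Sfrp2 had 138, 149 and 137 TPM untreated and 112 and 115 TPM with auxin. Irx3, a homeobox patterning factor, had 71.6, 67.5 and 61.2 TPM against 53.4 and 57.9 TPM, and both genes were lower in each auxin library. By functional group the median was 107% for the matrix and secreted genes, 109% for the signalling genes and 101% for the transcription factors. It was 100% for the imprinted or cell cycle genes, 106% for the cytoskeletal genes and 90.5% for the transport and membrane genes. In untagged cultures, whose untreated libraries helped choose the genes, auxin levels were 81.4% to 141% of untreated with a median of 98.1%, and 1 gene, Thbs1, was at 120% or more.

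The band edges cut through a continuum. Just outside the lower edge were Tro at 78.5%, the Hedgehog target Gli1 at 78.9% and Rai1 at 79.9%, and just inside were Sfrp2 at 80.5% and Cpne2 at 80.6%. At the upper edge Magel2 (145%), Adamts1 (146%) and Podxl (147%) were inside, and Sh3bp5 (151%), the fibrillin Fbn2 (156%) and Tspan7 (156%) outside. For the level, Ehd2 (9.11 TPM), Fras1 (9.72 TPM) and Msrb3 (9.77 TPM) were outside, and Scara3 (10.01 TPM), Lrrc3 (10.3 TPM) and Coro2a (11.02 TPM) inside. For the fold, Smarca1 (7.87), Klhl26 (7.92) and Fam57a (7.96) were outside and Tmem164 (8.22), Plxnd1 (8.33) and Tead3 (8.44) inside.

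Markers of other cells moved with SUZ12 loss in the same libraries. The summed level of 25 pluripotency genes was 441 to 463 TPM in untreated SUZ12-AID differentiated cultures and 2250 to 2278 TPM with auxin, with mean Pou5f1 at 7.88 and 341 TPM. Of 29 mesoderm genes the sum went from 138 to 156 TPM to 638 to 655 TPM, with Mesp1 and Myf5 at 0 in the auxin libraries. The 21 endoderm genes summed to 424 to 451 TPM and 1189 to 1259 TPM, with Cer1 at 0 under auxin. The 20 neural crest genes summed to 56.3 to 64.2 TPM and 236 to 246 TPM. Single markers did not all follow these sums. Mean Foxa2, also a ventral neural tube marker, fell from 161 to 66.0 TPM, while Gata6 rose from 0.18 to 13.9 TPM. Sox17 (0.09 to 0.97 TPM), Sox10 (0.17 to 1.60 TPM) and Tfap2a (0.33 to 3.96 TPM) rose but stayed low. Hnf4a averaged 0.04 TPM with auxin, and Foxd3 had 0.76 TPM untreated and 0.90 TPM with auxin. The mesoderm gene Meox1 went from 5.92 to 124 TPM. Twist1, on both the mesoderm and neural crest lists, went from 29.7 to 97.8 TPM. The sum over 52 neuronal cytoskeleton genes was 20089 to 20757 TPM untreated and 5874 to 6024 TPM with auxin. In bulk RNA, fewer cells of a type and less RNA per cell cannot be told apart, and the part of these changes in the level of each retained gene was not tested.

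Whether the retained genes rose with differentiation in libraries that had no part in choosing them was asked in the MTF2-AID and AID-JARID2 lines, untreated, and in the auxin-treated untagged line. All 82 were higher in differentiated cultures than in stem cells in each of these 3 comparisons (limma on log2(TPM + 0.5), adjusted p at most 5.38e-11). Among all 17760 genes tested, 48.2% were called higher in the MTF2-AID line, 47.1% in the AID-JARID2 line and 46.1% in the untagged line with auxin. The members' median log2 difference was 4.34, 4.06 and 4.04 in these lines, and that of all genes 0.31, 0.28 and 0.23. Median-of-ratios scaling of the TPM, which sets the middle gene ratio between libraries to 1, brought the median of all genes to 0 and left all 82 calls in place. The rise did not set the retained genes apart, since the 737 induced genes below the SUZ12 band and the 31 above it were also all called higher in these comparisons.

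Ccnd2 had 2.70, 2.58 and 2.00 TPM in untreated MTF2-AID stem cells and 349, 334 and 332 TPM in the differentiated cultures. Its log2 difference was 6.86 (SE 0.14, limma adjusted p = 5.8e-32), and no libraries overlapped. The smallest rise in that line was that of Slc16a3, a lactate transporter, from 4.62, 5.21 and 5.00 TPM to 25.4, 35.3 and 22.9 TPM, a log2 difference of 2.36 (SE 0.15, limma adjusted p = 8.61e-17). In the AID-JARID2 line the smallest rises were those of Tmem98, at 2.73 (SE 0.12), and Magel2, at 2.73 (SE 0.21).

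In the SUZ12-AID line itself, auxin-treated differentiated cultures stood 4.62 to 105 times above auxin-treated stem cells in the retained genes, with a median of 14.5-fold, and 68 of 82 were at 8-fold or more. The same ratio in untreated SUZ12-AID cultures was 7.98 to 119, with a median of 17.6 and 81 genes at 8-fold or more. Both ratios contain libraries used in the choice and are given without a test.

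The size of the rise was not the same in the MTF2-AID and AID-JARID2 lines for every gene. The line difference in the rise passed the test for 17 members, 11 with the larger rise in the MTF2-AID line and 6 in the AID-JARID2 line. Among all 17760 genes 7.76% and 5.47% were called in these directions. Magel2, at 0.29, 0.37 and 0.22 TPM in MTF2-AID stem cells, reached 13.5, 13.7 and 12.3 TPM in that line, and in the AID-JARID2 line it went from 0.76, 0.33 and 0.22 TPM to 6.21, 5.71 and 4.81 TPM. Its difference between the rises was 1.38 on the log2 scale (SE 0.30, limma adjusted p = 0.00134). The parathyroid hormone receptor Pth1r (1.30), Megf6 (1.12) and Igdcc4 (1.01) followed in that direction. Thbs1, the matrix glycoprotein thrombospondin, rose more in the AID-JARID2 line, by 1.38 (SE 0.21, limma adjusted p = 1.31e-05), as did Slc16a3 (1.38, SE 0.21, limma adjusted p = 1.37e-05). With voom on the recovered reads 9 of the 17 genes were called, and with only the compared groups in the fit 11.

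Auxin treatment of MTF2-AID differentiated cultures raised 21 of the 82 retained genes and lowered 4, while 57 did not pass the test. The background was 5.03% of 16469 genes called higher and 3.11% called lower. The members' median log2 difference was 0.08 and that of all genes 0.03. The genes that rose were 5 of 17 matrix and secreted genes, 5 of 15 cytoskeletal genes, 3 of 11 transcription factors, 3 of 5 imprinted or cell cycle genes, 1 of 13 signalling genes and 4 of 21 others. For comparison, among the 737 induced genes below the SUZ12 band 18 rose and 195 fell (median log2 difference -0.18), and among the 31 above it 14 rose and none fell (median 0.30). Within the 69 tested genes of the matrix list, 20 rose and 3 fell, and within the 52 neuronal cytoskeleton genes 2 rose and 29 fell.

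Thbs1 had 28.0, 27.8 and 25.5 TPM in untreated MTF2-AID cultures and 51.9, 50.4 and 46.1 TPM with auxin. The difference was 0.86 on the log2 scale (SE 0.09, limma adjusted p = 1.04e-05) with no overlap. In the untagged line, whose untreated libraries helped choose the genes, Thbs1 also stood higher with auxin, at 12.5, 14.2 and 12.3 TPM untreated and 19.3, 17.5 and 18.1 TPM treated. A part of auxin itself in the Thbs1 difference was not tested.

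Amot had 32.6, 29.8 and 29.8 TPM untreated and 54.2, 49.8 and 41.8 TPM with auxin (log2 difference 0.65, SE 0.09, limma adjusted p = 7.6e-05). Nuak1, a kinase related to AMPK, had 50.6, 47.9 and 44.99 TPM against 72.0, 72.6 and 61.2 TPM (0.51, SE 0.08, limma adjusted p = 0.000301). Arl4c, a small GTPase, had 43.2, 41.8 and 46.1 TPM against 61.6, 65.9 and 58.1 TPM (0.50, SE 0.08, limma adjusted p = 0.000673). In untagged cultures the auxin and untreated ranges of Amot, Nuak1 and Arl4c overlapped.

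The collagen IV pair moved together. Col4a1 went from 154, 148 and 142 TPM to 203, 206 and 181 TPM (log2 difference 0.41, SE 0.07, limma adjusted p = 0.00109), and Col4a2 from 130, 127 and 130 TPM to 173, 175 and 146 TPM (0.35, SE 0.07, limma adjusted p = 0.00475). Untreated levels differed by line, since Col4a1 had 145, 160 and 133 TPM in AID-JARID2 and 70.3, 72.1 and 66.2 TPM in untagged cultures. Reads from the 22 shared bases could count for either gene if strand was not used in counting.

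Among cell cycle and imprinted genes, Ccnd2 rose from 349, 334 and 332 TPM to 453, 429 and 431 TPM (log2 difference 0.37, SE 0.06, limma adjusted p = 0.000362), with Cdkn1c (0.24, SE 0.06) and Grb10 (0.19, SE 0.05) rising less. The macrophage growth factor Csf1 (0.42, SE 0.11, limma adjusted p = 0.0246) and Podxl (0.40, SE 0.06, limma adjusted p = 0.000238) completed the 8 largest rises. Csf1 lost its call without any 1 of 4 libraries, untreated replicate 1 or 2 or auxin replicate 1 or 2, with adjusted p between 0.0691 and 0.119. Its call was also lost with the MTF2-AID groups alone in the fit (limma adjusted p = 0.117).

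The genes that fell were Slc16a3, Sfrp2, the zinc finger factor Zfp521 and the protease Prss23. Slc16a3 had 25.4, 35.3 and 22.9 TPM untreated and 14.9, 14.8 and 12.0 TPM with auxin, and it fell by 0.96 on the log2 scale (SE 0.14, limma adjusted p = 0.000309). Sfrp2 had 151, 175 and 153 TPM against 110, 106 and 100 TPM and fell by 0.60 (SE 0.08, limma adjusted p = 6.53e-05). Neither gene's libraries overlapped. Zfp521 fell by 0.30 (SE 0.09) and Prss23 fell by 0.26 (SE 0.07), at limma adjusted p of 0.0332 and 0.0308. Both calls were lost without single libraries. For Zfp521 these were any untreated replicate or auxin replicate 3 (limma adjusted p 0.0608 to 0.187). For Prss23 they were any untreated replicate or auxin replicate 2 or 3 (0.0581 to 0.109). With the MTF2-AID groups alone in the fit both calls were also lost (limma adjusted p of 0.186 and 0.144). Prss23 lost its call with voom too (adjusted p = 0.115).

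The number of calls in this comparison depended on the other groups that shared the fit: with the MTF2-AID groups alone 13 rose and 2 fell. Without untreated replicate 2 there were 16 calls and without auxin replicate 2 there were 15. Marker sums moved less than with SUZ12 degraded. Pluripotency genes summed to 485 to 522 TPM untreated and 548 to 635 TPM with auxin, mesoderm genes to 199 to 214 and 304 to 312 TPM, with Msgn1 and Myf5 at 0 under auxin, endoderm genes to 344 to 382 and 471 to 497 TPM, with 11 of 17 called higher, and neuronal cytoskeleton genes to 19518 to 19740 and 16304 to 16389 TPM. Their part in the members' differences was not tested.

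**Figure D2:**
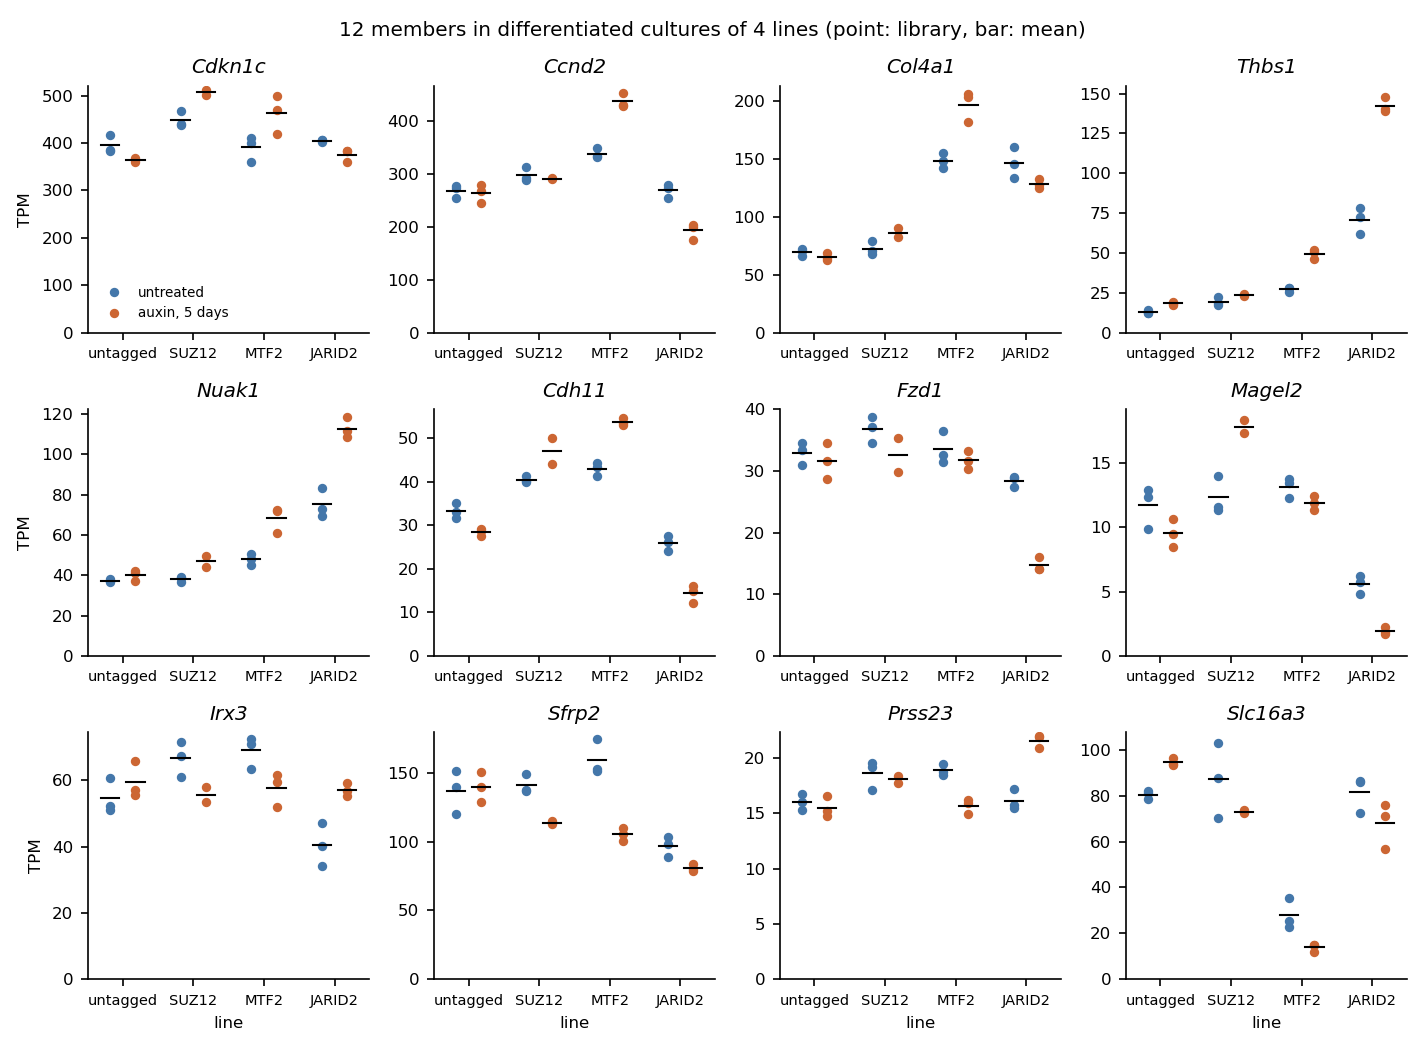
TPM (vertical axis) of 12 retained genes in differentiated cultures of the 4 lines (horizontal axis), untreated and with auxin for 5 days; points are libraries and bars are means. Thbs1 reaches 139 to 148 TPM in auxin-treated AID-JARID2 cultures from 61.6 to 78.2 TPM untreated, while Magel2 in that line goes from 4.81 to 6.21 TPM down to 1.72 to 2.26 TPM.

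In AID-JARID2 differentiated cultures auxin lowered 31 of the 82 retained genes and raised 6. The background was 15.7% of 16469 genes called lower and 9.28% called higher, and the median log2 difference was -0.20 over the members and -0.04 over all genes. With median-of-ratios scaling of the TPM, the split was 26 lower and 12 higher, and with voom 30 and 12. Among the 737 induced genes below the SUZ12 band, 607 fell and 3 rose (median -0.61), and among the 31 above it 4 fell and 12 rose (median 0.14). Of the tested list genes, 47 of 52 neuronal cytoskeleton genes and 38 of 45 Notch and proneural genes fell, while the matrix list had 18 lower and 13 higher of 69.

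The falls reached every functional group: 6 of 13 signalling genes, 6 of 15 cytoskeletal genes, 8 of 21 transport and membrane genes, 4 of 17 matrix genes, 4 of 11 transcription factors and 3 of 5 imprinted or cell cycle genes. Magel2 had 6.21, 5.71 and 4.81 TPM untreated and 2.26, 1.86 and 1.72 TPM with auxin, and it fell by 1.31 on the log2 scale (SE 0.12, limma adjusted p = 6.18e-08). Its neighbour Ndn had 217, 231 and 264 TPM against 169, 163 and 162 TPM and fell by 0.52 (SE 0.05, limma adjusted p = 2.77e-07). Both neighbours therefore had lower levels in every auxin library. In the untagged line, whose untreated libraries helped choose the genes, Ndn was also lower in every auxin library, at 303, 309 and 300 TPM untreated and 264, 261 and 263 TPM treated (86.4%). Magel2 there had 12.9, 12.4 and 9.90 TPM against 10.7, 9.48 and 8.49 TPM (81.4%), which overlapped. A part of auxin itself in these falls was not tested.

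Of the signalling genes, the Wnt receptor Fzd1 went from 28.8, 27.3 and 29.0 TPM to 16.02, 14.1 and 14.2 TPM and fell by 0.92 (SE 0.08, limma adjusted p = 3.75e-08). The semaphorin receptor Plxnd1 fell by 0.60 (SE 0.13, limma adjusted p = 0.00179), Nkd1, an antagonist of Wnt signalling, fell by 0.57 (SE 0.11), and Pth1r fell by 0.59 (SE 0.10). The other Wnt receptor of the set, Fzd2, had 254, 276 and 281 TPM untreated and 298, 318 and 280 TPM with auxin and did not pass the test.

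Cdh11, a mesenchymal cadherin, had 27.6, 24.1 and 26.1 TPM untreated and 16.01, 12.1 and 15.0 TPM with auxin and fell by 0.84 (SE 0.08, limma adjusted p = 8.65e-08). Tmem98 went from 54.9, 57.7 and 56.0 TPM to 33.2, 28.6 and 33.0 TPM and fell by 0.82 (SE 0.07, limma adjusted p = 8.21e-09). Zfp503, a zinc finger repressor, went from 83.0, 80.3 and 81.5 TPM to 54.1, 50.8 and 49.3 TPM and fell by 0.66 (SE 0.07, limma adjusted p = 1.6e-07). No libraries overlapped for these genes. In untagged cultures, whose untreated libraries helped choose the genes, auxin levels were 85.7% of untreated for Cdh11, 89.3% for Tmem98 and 92.6% for Zfp503. A part of auxin itself in the falls of these genes was not tested. Coro2a fell by 0.61 (SE 0.12), and Tmem176b fell by 0.59 (SE 0.17, limma adjusted p = 0.0159). The Tmem176b call was lost without untreated replicate 2 or 3 or auxin replicate 1 or 3 (adjusted p 0.0514 to 0.106). With the AID-JARID2 groups alone in the fit it was lost as well (limma adjusted p = 0.14).

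The 6 genes that rose were Thbs1, Nuak1, Irx3, Prss23, Arl4c and Podxl. Thbs1 had 61.6, 78.2 and 72.8 TPM untreated and 148, 139 and 140 TPM with auxin, a log2 difference of 1.01 (SE 0.09, limma adjusted p = 3.32e-08). Nuak1 had 73.0, 83.4 and 69.3 TPM against 118, 108 and 112 TPM (0.58, SE 0.08, limma adjusted p = 6.95e-06). Irx3 had 47.0, 40.2 and 34.1 TPM against 56.8, 59.2 and 55.3 TPM (0.50, SE 0.10, limma adjusted p = 0.000789). None of these genes' libraries overlapped between conditions. With auxin Irx3 reached the range of the untreated untagged cultures, at 60.8, 52.2 and 51.0 TPM.

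Other cells' markers also moved in these libraries. Pluripotency genes summed to 564 to 622 TPM untreated and 1005 to 1059 TPM with auxin, endoderm genes to 611 to 734 and 931 to 1034 TPM, and mesoderm genes to 235 to 300 and 258 to 280 TPM, with Mesp1, Mixl1, Msgn1, Meox2 and Myf5 at 0 under auxin. Neuronal cytoskeleton genes summed to 14021 to 15491 and 9229 to 9455 TPM. The part of these changes in the members' levels was not tested.

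The auxin effect itself differed between the MTF2-AID and AID-JARID2 cultures for 35 of the 82 genes. For 32 the MTF2-AID effect was the higher and for 3 the lower, against 7.82% and 1.82% of all 16469 genes. The median difference of effects was 0.27 on the log2 scale over the members and 0.08 over all genes, and with median-of-ratios scaling 21 were higher and 5 lower. Calls in the separate lines matched in direction for 5 genes (Thbs1, Nuak1, Arl4c and Podxl higher, Sfrp2 lower) and were opposite for 7. Of these 7, Ccnd2, Cdh11, Cpne2, Irs1, Osbpl5 and Plat were higher in the MTF2-AID and lower in the AID-JARID2 cultures, and Prss23 was the reverse. The MTF2-AID call of Prss23 was lost in 7 of 15 alternatives. Another 13 genes were called in the MTF2-AID line alone, 25 in the AID-JARID2 line alone and 32 in neither. A call in 1 line alone does not show a difference between the lines, for which the test of the difference is given next.

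Magel2 differed most, by 1.17 (SE 0.18, limma adjusted p = 0.000137), and its MTF2-AID libraries, at 13.5, 13.7 and 12.3 TPM untreated and 12.5, 11.3 and 11.9 TPM with auxin, overlapped. Cdh11 differed by 1.16 (SE 0.12, limma adjusted p = 8.95e-07), with 43.4, 44.2 and 41.4 TPM in untreated MTF2-AID cultures and 54.5, 53.5 and 53.1 TPM with auxin. Ccnd2 differed by 0.85 (SE 0.08, limma adjusted p = 5.12e-07), since it had 274, 279 and 255 TPM in untreated AID-JARID2 cultures and 204, 176 and 200 TPM with auxin. Cdh11 and Ccnd2 therefore moved in opposite directions, each without overlap in either line.

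Plxnd1 (0.88), Tmem98 (0.88), Fzd1 (0.84), Ccdc184 (0.82) and Nkd1 (0.82) completed the 8 largest positive differences among genes with a name, and the unnamed gene model Gm266 (0.85, SE 0.23, limma adjusted p = 0.0218) lay between Ccnd2 and Fzd1. The call for Ccdc184 was lost in 12 of 21 alternatives. The 3 negative differences belonged to Irx3 (-0.76, SE 0.14, limma adjusted p = 0.00129), Prss23 (-0.67, SE 0.10, limma adjusted p = 0.000191) and Slc16a3 (-0.69, SE 0.20, limma adjusted p = 0.0358). Prss23 had 18.7, 19.5 and 18.5 TPM untreated and 16.2, 14.9 and 15.9 TPM with auxin in MTF2-AID cultures, and 15.4, 15.8 and 17.2 TPM against 20.9, 21.9 and 21.9 TPM in AID-JARID2 cultures. The call for Slc16a3 was lost in 9 of 21 alternatives, including voom (adjusted p = 0.165).

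**Figure D3:**
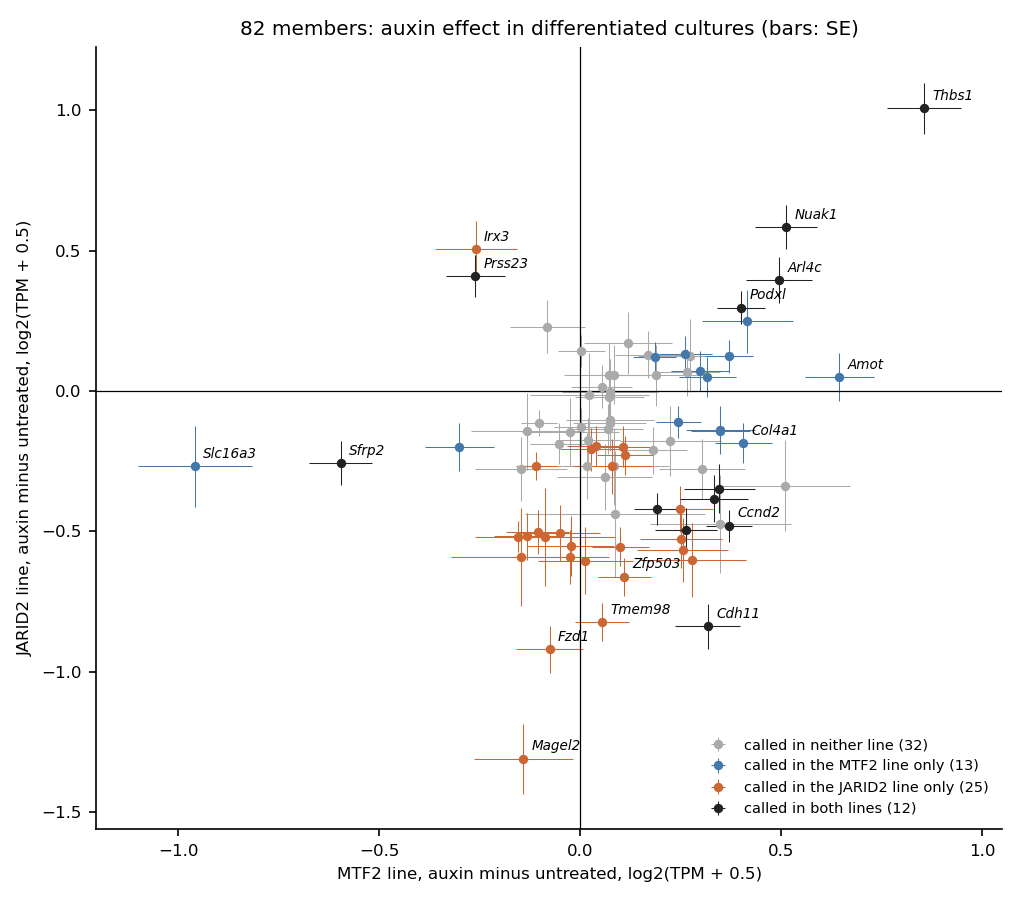
Auxin effect on log2(TPM + 0.5) of the 82 retained genes in MTF2-AID (horizontal axis) and AID-JARID2 (vertical axis) differentiated cultures; points are genes, bars are standard errors and colours give the calls. Thbs1 lies highest on both axes, at 0.86 and 1.01, Magel2 lowest on the AID-JARID2 axis at -1.31, and Slc16a3 lowest on the MTF2-AID axis at -0.96.

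The 32 genes called in neither line included high and precisely measured ones. Fzd2 differed by 0.00 (SE 0.06) in MTF2-AID and by 0.14 (SE 0.06) in AID-JARID2 cultures. Pkdcc had 106, 112 and 106 TPM against 115, 112 and 109 TPM in the first line and 120, 132 and 126 TPM against 120, 145 and 118 TPM in the second. Missing the threshold does not show that these levels were equal.

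Without auxin, the AID-JARID2 and MTF2-AID differentiated cultures also differed in 37 retained genes, 24 lower and 13 higher in the AID-JARID2 line, against 14% and 9.06% of all genes. With median-of-ratios scaling the split was 19 lower and 20 higher. Matrix genes were more often higher, 6 of 17 with 2 lower, and imprinted and cell cycle genes lower, 4 of 5 with none higher. Slc16a3 was higher in the AID-JARID2 line, at 72.3, 86.3 and 86.2 TPM against 25.4, 35.3 and 22.9 TPM, by 1.55 on the log2 scale (SE 0.14, limma adjusted p = 1.47e-07). Thbs1 (1.37, SE 0.09), Amot (0.89, SE 0.09), Loxl2 (0.70, SE 0.07), Podxl (0.66, SE 0.06), Plat (0.66, SE 0.06), Nuak1 (0.65, SE 0.08) and the protease Adamts1 (0.64, SE 0.11) were also higher there. Magel2 (-1.18, SE 0.12), Pth1r (-0.94, SE 0.10), Irx3 (-0.77, SE 0.10), Sfrp2 (-0.72, SE 0.08), Cdh11 (-0.72, SE 0.08), Serf1 (-0.67, SE 0.17, a call lost without AID-JARID2 untreated replicate 3 at adjusted p = 0.0564), Ndn (-0.60, SE 0.05) and Nkd1 (-0.55, SE 0.11) were lower. Markers of other cells differed between the same libraries. Neuronal cytoskeleton genes summed to 14021 to 15491 TPM in AID-JARID2 and 19518 to 19740 TPM in MTF2-AID cultures, with 49 of 52 called lower and 1 higher. Endoderm genes summed to 611 to 734 and 344 to 382 TPM (5 of 17 called higher), and pluripotency genes to 564 to 622 and 485 to 522 TPM (10 of 25 higher and 1 lower). Their part in the members' differences was not tested. The line and the tagged protein cannot be told apart in this comparison.

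In stem cells, 12 h of SUZ12 degradation raised 6 of the 64 retained genes that passed the minimum of 1 TPM in at least 2 stem cell libraries, and lowered none. The background was 5.89% of 15104 genes called higher. The other 18 retained genes were under the minimum and were not tested, and 1 of the 64 passed it only through the auxin-treated SUZ12-AID libraries. All 3 auxin libraries were above all untreated ones for 32 of the 64 genes, against 26.9% of all genes tested. Among the induced genes below the SUZ12 band 69 of 494 tested were called higher (14.0%), and above it 1 of 22 (4.55%). The retained genes were at 9.38%. Median log2 differences were 0.46 for the retained genes, 0.33 below the band and 0.34 above it. A rise in stem cells was thus not particular to the retained genes. The median difference over all tested genes was 0.09 on the log2 scale, and median-of-ratios scaling brought it to 0 with the same 6 genes called. The 6 were Pdzrn3 (a ubiquitin ligase), Col4a2, Zfp521, Hmga2, Col5a1 (a fibrillar collagen) and Podxl.

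Podxl had 5.89, 6.40 and 5.94 TPM in untreated SUZ12-AID stem cells and 9.44, 9.26 and 8.33 TPM with auxin (log2 difference 0.53, SE 0.11, limma adjusted p = 0.00773). Untagged stem cells had 6.76, 6.86 and 7.07 TPM untreated and 7.47, 6.57 and 7.12 TPM with auxin, which overlapped. Col5a1 had 2.95, 2.67 and 3.69 TPM against 5.47, 4.75 and 4.68 TPM in SUZ12-AID stem cells (0.61, SE 0.16, limma adjusted p = 0.0254), and Hmga2 2.48, 2.72 and 3.03 TPM against 4.25, 4.79 and 5.45 TPM (0.71, SE 0.19, limma adjusted p = 0.0291). Both were without overlap in this line and overlapped between conditions in the untagged line.

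Col4a2 had 1.18, 1.30 and 1.96 TPM untreated and 3.08, 2.70 and 3.03 TPM with auxin (0.81, SE 0.16, limma adjusted p = 0.00443). Pdzrn3 had 1.35, 0.66 and 1.20 TPM against 2.34, 2.00 and 2.71 TPM (0.88, SE 0.23, limma adjusted p = 0.0246). In the untagged stem cells these 2 genes were also higher in every auxin library, Col4a2 at 1.53, 1.57 and 1.23 TPM untreated and 2.14, 2.29 and 2.04 TPM treated, and Pdzrn3 at 0.95, 1.35 and 0.84 TPM against 1.95, 1.72 and 1.54 TPM. A part of auxin itself in their difference was not tested. Zfp521 had 0.707, 0.689 and 0.915 TPM against 1.90, 1.43 and 1.49 TPM (0.73, SE 0.20, limma adjusted p = 0.0307) and overlapped in the untagged line.

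These stem cell levels rest on few reads, given here as totals over the 3 untreated and then the 3 auxin-treated SUZ12-AID libraries. Pdzrn3 had 53 and 83 reads, Zfp521 69 and 103, Col4a2 103 and 148, and Podxl 355 and 377. Library depth differed with treatment, at 8707922, 7962236 and 7300925 reads untreated and 5391121, 6502671 and 5824777 with auxin. Every untreated library was thus deeper than every auxin-treated one, so these totals do not compare levels. A part of depth in the calls was not tested. Leaving out 1 library left 2 to 6 calls; it was 2 without untreated replicate 2 or auxin replicate 1, 3 without untreated replicate 1 or auxin replicate 2 or 3, and 6 without untreated replicate 3. Col4a2 and Podxl kept their calls in each of these, while Hmga2 and Zfp521 lost them without any of the other 5 libraries, Col5a1 without 4 and Pdzrn3 without 3. With the SUZ12-AID stem cell groups alone in the fit 6 members were called, of which 3 were among the 6 named. With voom on the reads 21 members were called, all higher, and the minimum of 5 TPM left 18 members of which 1 was called. Of these 6 genes, in MTF2-AID differentiated cultures Podxl, Col4a2 and Hmga2 rose with auxin, Zfp521 fell and the other two did not pass the test. In AID-JARID2 differentiated cultures Podxl rose, Col5a1 and Pdzrn3 fell and the other three did not pass.

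**Figure D4:**
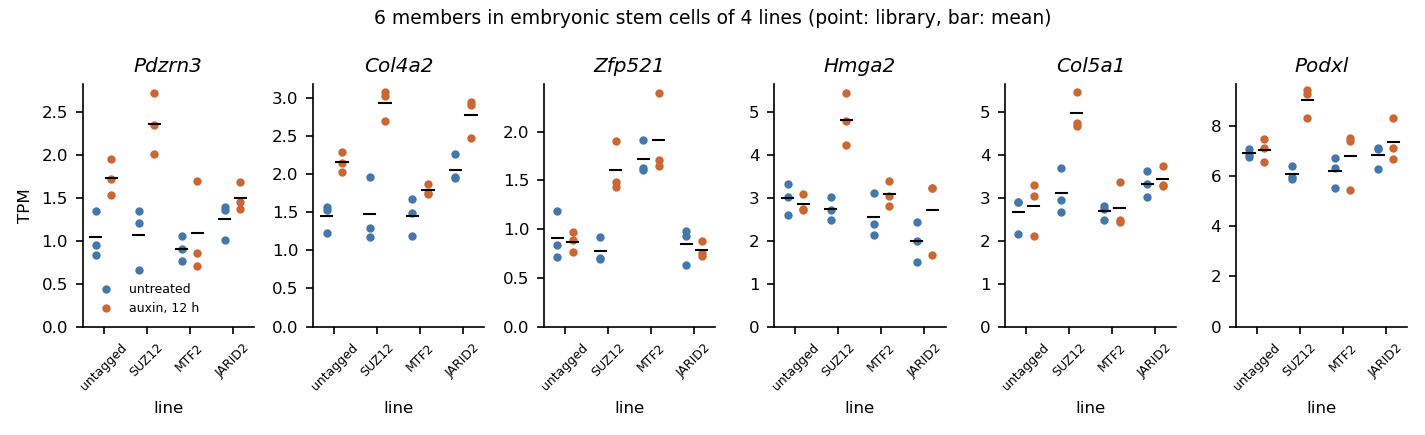
TPM (vertical axis) in stem cells of the 4 lines (horizontal axis), untreated and with auxin for 12 h, of the 6 retained genes called higher with SUZ12 degraded; points are libraries and bars are means. In the SUZ12-AID line every auxin point of Podxl (8.33 to 9.44 TPM) is above every untreated one (5.89 to 6.40 TPM), and in the untagged line Col4a2 and Pdzrn3 are separated as well.

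Degrading MTF2 or JARID2 for 12 h called no retained gene in stem cells, where 1.09% and 0.298% of 15104 genes were called by limma in either direction. At an unadjusted p below 0.05 there were 4 of 64 members with MTF2 degraded (6.25%, against 11.2% of all genes tested) and 8 of 64 with JARID2 degraded (12.5%, against 9.28%). Voom gave 5 and 8 members at that level and none after adjustment.

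Of 4 retained genes shown here, 3 were higher in SUZ12-degraded stem cells (Col5a1, Pdzrn3 and Hmga2). Magel2 had the largest fall with JARID2 degraded in differentiated cultures. Their promoter sequences are given as a description. Each is the 250 bases before the RefSeq start of the gene (GRCm38.p6), read 5′ to 3′ on the gene's strand, with CpG dinucleotides in capitals; none overlaps a GENCODE exon. Positions are chr2:27886175-27886424 on the plus strand for Col5a1, chr6:101377898-101378147 on the minus strand for Pdzrn3, chr10:120476470-120476719 on the minus strand for Hmga2 and chr7:62376729-62376978 on the plus strand for Magel2.
Col5a1: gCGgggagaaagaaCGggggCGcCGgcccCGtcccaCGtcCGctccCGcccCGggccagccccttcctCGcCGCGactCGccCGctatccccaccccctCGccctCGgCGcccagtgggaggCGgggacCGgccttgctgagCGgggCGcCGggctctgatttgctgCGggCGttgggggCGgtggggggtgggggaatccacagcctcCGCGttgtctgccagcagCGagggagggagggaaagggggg
Pdzrn3: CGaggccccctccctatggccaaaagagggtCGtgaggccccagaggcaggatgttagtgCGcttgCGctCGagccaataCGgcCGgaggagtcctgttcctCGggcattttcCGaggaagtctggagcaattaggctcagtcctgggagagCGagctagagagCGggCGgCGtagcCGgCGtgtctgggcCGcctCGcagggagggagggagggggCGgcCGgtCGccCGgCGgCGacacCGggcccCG
Hmga2: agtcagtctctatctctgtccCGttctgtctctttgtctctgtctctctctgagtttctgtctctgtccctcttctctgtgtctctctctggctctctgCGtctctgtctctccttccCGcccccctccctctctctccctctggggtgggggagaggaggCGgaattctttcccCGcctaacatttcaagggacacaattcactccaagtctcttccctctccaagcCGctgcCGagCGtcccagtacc
Magel2: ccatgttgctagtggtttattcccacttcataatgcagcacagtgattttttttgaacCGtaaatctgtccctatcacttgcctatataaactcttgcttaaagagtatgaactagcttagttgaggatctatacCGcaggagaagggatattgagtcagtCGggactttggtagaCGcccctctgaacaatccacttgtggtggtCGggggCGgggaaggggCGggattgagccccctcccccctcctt

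Searched for the letters CG, which read the same on both strands, the Col5a1 sequence held 28 and the Pdzrn3 sequence 25, counts reached by 7.6% and 10.7% of 32851 RefSeq promoters of the same length. Hmga2 held 8 and Magel2 7, near the median of 6 over all promoters, of which 92.1% held at least 1. Col4a2, also raised in stem cells, held 26, a count reached by 9.6%, in a window that overlaps a Col4a1 exon. Zfp521 and Podxl were not counted. Pdzrn3 and Col4a2 were also higher in every auxin library of the untagged stem cells. A link between CpG counts and the rise in stem cells was not tested. CpG past the start was not counted. Promoters were matched by symbol for 60 of the 82 members (73.2%), and CpG content over the whole set was not compared.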

How the data were processed

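Gene levels in TPM for 47 libraries were deposited by the authors in 1 table, and the submitters' processing notes name STAR 2.6.1d and mm10. How reads were counted, over which annotation and with which strand setting is not given in the sources used here. Per the labels, libraries were stranded (dUTP). The retained genes and the gene lists were chosen with earlier results of these data known.

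Tests were run on log2(TPM + 0.5) with limma 3.58.1 (R 4.3.3), using lmFit and the trend and robust options of eBayes. A gene entered a fit when at least 2 of its libraries reached 1 TPM. Differences on this scale understate the change of low genes. One fit held the 8 groups of differentiated cultures, another the 8 stem cell groups, and a fit of all 16 groups gave the rises. All p-values were Benjamini-Hochberg adjusted over all genes of the fit and called below 0.05. The script was tested on data simulated for the MTF2-AID differentiated comparison. Seeded log2 differences of -2, -1, 1 and 2, in 50 genes each with many reads, were recovered for 100%. Another 39 of the 16939 genes fitted were called without a seeded difference, 7 of them with a mean of 20 reads or more. False calls thus lay mostly among genes with few reads. The simulated spread between replicates was fixed and not estimated from these data. Recovery of log2 differences smaller than 1, or in genes with few reads, was not tested. Where the labels do not show separate cultures, p-values measure only the spread between libraries.

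Named genes were the 10 highest and 5 with the largest fold, up to 8 rises and 8 falls per comparison, up to 6 per list, and the 3 on each side of a threshold; others were chosen after their values were seen. For 1 such gene no value is reported here. Alternatives were the pseudocount (0.1 or 1), no filter or 5 TPM, median-of-ratios scaling, plain eBayes, voom on whole reads (recovered for 100% of genes within 0.001 of a read), the compared groups only, a replicate block and leaving out each library.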

Additional observations from a re-analysis of the deposited data

Results flagged for a closer look

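The response to auxin differed between MTF2-AID and AID-JARID2 differentiated cultures for 35 retained genes by a test of the difference itself in limma. The log2 differences (MTF2-AID effect minus AID-JARID2 effect) of the genes named for it were 1.17 for Magel2, 1.16 for Cdh11, 0.88 for Plxnd1, 0.88 for Tmem98, 0.85 for Ccnd2, 0.84 for Fzd1, 0.82 for Ccdc184 and 0.82 for Nkd1. Irx3 (-0.76), Slc16a3 (-0.69) and Prss23 (-0.67) differed in the other direction. The rise with differentiation differed between both untreated lines for 17 retained genes by the same kind of test. Groups of 3 libraries were not examined for single distant libraries.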

How the results depend on the processing

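Of 59 results for single named genes, 48 kept their call in every alternative, 11 lost it in at least 1 and none changed direction. The 25 calls with MTF2 degraded in differentiated cultures became 15 with the compared groups only and 15 to 21 when 1 library was left out, and over all genes 1340 calls became 601 with the compared groups only. The 17 differences in the rise became 9 with voom, 11 with the compared groups only and 13 to 20 without 1 library. The 6 calls in SUZ12-degraded stem cells became 1 at the 5 TPM minimum, where 18 members were tested, 10 with plain eBayes, 21 with voom and 2 to 6 without 1 library. Over all genes, the stem cell calls with SUZ12 degraded went from 1031 to 2184 with voom, and 351 without untreated replicate 2 was the lowest. The differences of auxin effects over all genes went from 1588 to 996 with the compared groups only, those with MTF2 degraded in stem cells from 164 to 26 and those with JARID2 degraded there from 45 to 8. The causes were not tested. Leaving out 1 library gave 31 to 39 calls for JARID2 in differentiated cultures, 28 to 34 for the difference of effects and 30 to 34 for the untreated lines. The main fits did not pair libraries by replicate number, and same-numbered deviations correlated weakly, at -0.0163 to 0.0853. With a replicate block there were 29 calls for MTF2, 47 for JARID2, 38 for the difference, 41 for the untreated lines, 17 for the rise and 6 in SUZ12-degraded stem cells. In the MTF2-AID and AID-JARID2 differentiated cultures every untreated library correlated best with the auxin library of its own number. Over all genes, the block took the calls there from 1340 to 1734 for MTF2 and from 4116 to 4598 for JARID2. A small effect shared by same-numbered libraries was not tested. Depth of 3237115 to 8707922 reads limits the members that stem cells express at about 1 TPM.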
